A study of Mus musculus with 6 samples.

Results

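The interferon regulatory factors on the array were taken as all probe sets whose symbol in the platform annotation is Irf1, Irf2, Irf3, Irf4, Irf5, Irf7, Irf8 or Irf9. The rule found 14 probe sets of 8 genes, of 22626 probe sets and 12393 genes in all. These transcription factors share a DNA-binding domain and act at both ends of the interferon system. Irf3, Irf5 and Irf7 are switched on by kinases downstream of sensors of foreign nucleic acids and turn on type I interferon genes. Irf9 is the DNA-binding subunit of ISGF3, the complex that carries the type I interferon signal to target genes, while Irf1 is an interferon-induced activator and Irf2 a factor that competes with it for the same sites. Irf4 and Irf8 act mainly in blood cells. In Foxp3-dependent regulatory T cells (Treg), which hold other immune cells in check, Irf4 is induced by the T cell receptor and is needed for effector functions. Irf8 is best known for its part in the development of monocytes, dendritic cells and B cells.

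Gene expression was measured on arrays in magnetically separated CD4+CD25+ T cells of C57BL/6 strain mice. One group of 3 samples was wild type and the other group of 3 was HDAC9-/-, that is, labelled as lacking histone deacetylase 9, a class IIa deacetylase. The series title asks how deacetylases control Foxp3+ Treg, and the comparison here is HDAC9-/- against wild type. The series design calls the samples independent. The sources used here do not give age, the way the deletion was made or whether each sample was 1 mouse or a pool, and p-values measure only the spread between these samples. The values are log2 expression values, and precision is limited by having 3 arrays per genotype.

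The 1 probe set of Hdac9, the targeted gene, was dim throughout, at 3.50, 3.74 and 4.10 in wild type and 3.74, 3.62 and 3.66 in HDAC9-/- replicates 1 to 3. These arrays overlapped, and the labelled genotype could not be checked on them. The labelled cell type was checked against 15 marker genes of Treg and T cells. Foxp3 had log2 levels of 10.34 ± 0.05 (wild type) and 10.37 ± 0.05 (HDAC9-/-; SD, n = 3), and Cd3e read 11.83 ± 0.13 and 11.79 ± 0.05. The smallest p among these markers were those of Tnfrsf4, the costimulatory receptor OX40 (difference 0.14), and Gpr83, a receptor of Treg (-0.28), and neither passed. Of the 15 markers only Ikzf2, which encodes Helios, had a mean below the median of all values (5.77). Wild type replicate 3 stood apart, with a mean correlation of 0.991 with the other arrays against 0.994 to 0.996 for the rest. For Gapdh the 3-prime probe set exceeded the 5-prime one, and a wider gap is read as a sign of lower RNA integrity. The gap was 0.03 to 0.11 on wild type arrays and 0.15 to 0.28 on HDAC9-/- arrays, without overlap. The same gap for actin overlapped (0.33 to 0.46 and 0.42 to 0.60).

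Members of the family can themselves be targets of interferon signalling, so their promoters were searched for its motifs. All 8 genes matched RefSeq promoter windows (GRCm38.p6, 250 bases before to 50 after each gene's start), with 11 windows in all. Both strands were searched for TTCNNNGAA, the GAS motif that activated STAT dimers bind, and for the ISRE core (GAAA, any 2 bases, then GAAA) that ISGF3 and the factors themselves bind. The GAS letters were found in windows of Irf1, Irf2 and Irf8, and the ISRE letters in that of Irf2. Of all 32851 windows, 8.30% hold the GAS letters and 3.44% the ISRE letters. The stretches are shown because Irf8 was the member with positive differences in every probe set and Irf1 is the textbook target of the interferon gamma signal. All are on the plus strand, and capitals mark the motif letters, which do not overlap one another.
Irf8 (chr8:120736177-120736223): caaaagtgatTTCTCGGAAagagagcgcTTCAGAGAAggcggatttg
Irf1 (chr11:53769914-53769942): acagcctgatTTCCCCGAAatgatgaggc
Irf2 (chr8:46739495-46739539): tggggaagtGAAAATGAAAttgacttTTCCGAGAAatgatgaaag

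The GAS matches of Irf8 begin 171 and 153 bases upstream of the gene's start, that of Irf1 90 bases and that of Irf2 224 bases upstream, with the Irf2 ISRE match at 241. The windows of Irf3, Irf4, Irf5, Irf7 and Irf9 hold neither set of letters. A match is a description of the letters and not a measured binding site.

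None of the 14 probe sets passed the threshold of an adjusted p below 0.05 (limma, Benjamini-Hochberg over all 22626 probe sets), where 3 of all probe sets (0.0133%) passed. The smallest adjusted p among the members was 0.434. At an unadjusted p below 0.05 there were 5 member probe sets, 2 with a positive difference (both of Irf8) and 3 with a negative one (1 each of Irf3, Irf4 and Irf9), against 8.78% of all probe sets, split into 5.55% higher and 3.23% lower. That count was 3 without wild type replicate 1, without HDAC9-/- replicate 1 or without HDAC9-/- replicate 3. The arrays of the genotypes did not overlap for 5 member probe sets, 2 of Irf8 above wild type and 2 of Irf3 and 1 of Irf9 below it, while 17.0% of all probe sets did not overlap, 11.0% above and 6.04% below wild type. Probe sets of 1 gene measure the same transcripts and are not independent of each other. Negative differences were seen for 12 of the 14, against 47.8% of all probe sets, and the members' median difference was -0.080 against 0.008 for all.

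**Figure D1:**
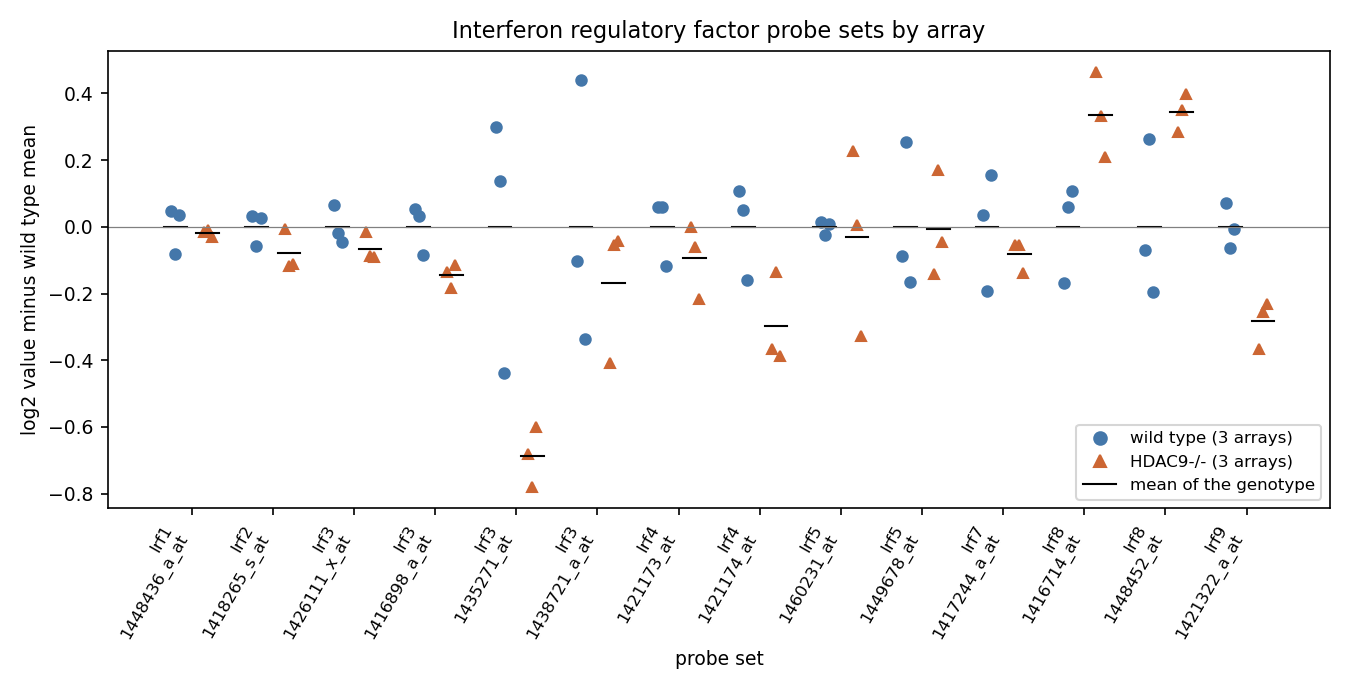
Each point is the log2 value of 1 array minus the wild type mean of that probe set, for the 14 probe sets of the factors, with circles for the 3 wild type arrays, triangles for the 3 HDAC9-/- arrays and a line at each genotype's mean. Both Irf8 probe sets have all HDAC9-/- arrays above all wild type arrays, and Irf9 and the Irf3 probe sets 1416898_a_at and 1435271_at have them below.

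Among the factors that carry the interferon signal, Irf9 had lower values in the HDAC9-/- samples. Its 1 probe set (1421322_a_at) read 9.25, 9.11 and 9.17 for the wild type (replicates 1 to 3, the order of all values by array) and 8.81, 8.92 and 8.95 for HDAC9-/- samples. All 3 HDAC9-/- arrays lay below all 3 wild type arrays. The difference was -0.28 with a standard error of 0.07 and a 95% confidence interval of -0.46 to -0.11, which did not pass (limma, adjusted p = 0.434). On the linear scale this is 1.22-fold. The difference ran from -0.32 to -0.24 when single arrays were left out. The Gapdh 3-prime to 5-prime gap separated the same arrays, and its part in the result was not tested. In bulk samples such as these, fewer cells with a transcript and less of it per cell cannot be told apart.

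The other factors of this branch had small differences. Irf7, which is itself induced by interferon and amplifies type I interferon production, read 8.89, 8.66 and 9.01 in wild type and 8.80, 8.80 and 8.72 in HDAC9-/- replicates 1 to 3. The wild type arrays spread on both sides of the HDAC9-/- arrays, and the difference was -0.08 with an interval of -0.32 to 0.16. It was -0.005 with wild type replicate 3 left out and -0.18 with wild type replicate 2 left out. Irf1 read 10.51, 10.38 and 10.50 in wild type and 10.45, 10.45 and 10.43 in HDAC9-/- samples, and the HDAC9-/- arrays all lay within the wild type range. Its difference of -0.02 had an interval of -0.18 to 0.14. Irf2 read 9.76 ± 0.05 and 9.68 ± 0.06 (SD, n = 3), and its difference of -0.08 (interval -0.24 to 0.09) did not separate the arrays. Its probe set 1418265_s_at bears the suffix s, which marks probes shared by more than 1 transcript.

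Irf3 was measured by 4 probe sets that disagreed in the size of the genotype difference. This constitutively made factor moves to the nucleus once phosphorylated by the kinases Tbk1 or Ikbke. Probe set 1435271_at read 6.25, 6.09 and 5.51 in wild type and 5.27, 5.17 and 5.35 in HDAC9-/- replicates 1 to 3. All HDAC9-/- arrays lay below the wild type arrays, and wild type replicate 3, the array that stood apart over the whole table, was the closest to them. The difference of -0.69 with a standard error of 0.19 did not pass (limma, adjusted p = 0.441), and it ran from -0.54 without wild type replicate 1 to -0.91 without wild type replicate 3, where the adjusted p was 0.0914. The mean of this probe set, 5.61, lies below the median of all values, and it is the only Irf3 probe set for which the annotation lists no accession.

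The brightest Irf3 probe set, 1426111_x_at, read 10.64, 10.55 and 10.53 in wild type and 10.56, 10.48 and 10.48 in HDAC9-/- samples. These arrays overlapped, and the difference was -0.07 with an interval of -0.22 to 0.09. It was -0.03 without wild type replicate 1. Its suffix x marks probes that can also match other transcripts. Probe set 1416898_a_at read 8.43, 8.41 and 8.30 against 8.25, 8.20 and 8.27, a difference of -0.14 (interval -0.31 to 0.02) without overlap of the genotypes. The dim probe set 1438721_a_at read 5.56 ± 0.40 and 5.39 ± 0.21 (SD, n = 3), and its difference of -0.17 turned to 0.05 without wild type replicate 2. All 4 differences were thus negative with all arrays included, and they ranged from -0.07 to -0.69.

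The disagreement can be read within each array, where a shift equal for both probe sets cancels. A shift that depends on brightness or on the part of the transcript does not cancel. The value of 1435271_at minus that of 1426111_x_at was -4.39, -4.46 and -5.01 in wild type and -5.29, -5.31 and -5.13 in HDAC9-/- replicates 1 to 3. The genotypes did not overlap, and the gap was wider by 0.62 in HDAC9-/- samples. This gave a two-sided exact permutation p of 0.1, the smallest that 3 arrays against 3 allow, and 0.2 adjusted over the 4 genes with several probe sets. The pair was picked as the extremes of the 4 probe sets, so the value is a description. These files do not tell which parts of the transcript the probe sets cover. The Gapdh 3-prime to 5-prime gap also separated the genotypes, and its part in this disagreement was not tested.

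Irf5, which acts downstream of Myd88 and the endosomal Toll-like receptors, had differences smaller than the spread of the arrays. Probe set 1460231_at read 6.99, 6.95 and 6.98 in wild type and 7.20, 6.98 and 6.65 in HDAC9-/- replicates 1 to 3, so that the HDAC9-/- arrays lay on both sides of a narrow wild type group. Its difference was -0.03 (interval -0.36 to 0.29). Probe set 1449678_at read 6.09 ± 0.22 and 6.08 ± 0.16 (SD, n = 3), with a difference of -0.01 (interval -0.33 to 0.31). The signs of both differences turned when single arrays were left out.

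Irf4, the factor of effector Treg, was measured by a pair of probe sets that cite the same accession. Probe set 1421173_at read 8.98, 8.98 and 8.80 in wild type and 8.92, 8.86 and 8.71 in HDAC9-/- replicates 1 to 3. The arrays overlapped, and the difference was -0.09 with an interval of -0.30 to 0.12. It was -0.03 without HDAC9-/- replicate 3 and -0.15 without wild type replicate 3. The dim probe set 1421174_at read 4.54, 4.48 and 4.27 against 4.07, 4.30 and 4.04, with 1 HDAC9-/- array just above the lowest wild type array. Its difference of -0.30 (standard error 0.11) did not pass (limma, adjusted p = 0.541). Its mean of 4.28 is a dim level, above that of only 30.8% of all probe sets. Within arrays, 1421174_at minus 1421173_at was -4.44, -4.50 and -4.53 in wild type and -4.86, -4.57 and -4.66 in HDAC9-/- samples, apart by -0.20 with the smallest possible p of the two-sided exact permutation test (0.1; 0.2 adjusted over the 4 genes). This gap difference was -0.16 with quantile normalization again, where p was 0.3, and -0.12 without HDAC9-/- replicate 1. Plasma cells also make Irf4. The mean of 5 plasma cell markers ran from 8.41 to 8.51 (wild type) and from 8.12 to 8.37 (HDAC9-/-), without overlap and with negative differences for 4 of 5. Jchain, the joining chain of antibodies, differed by -0.47 and Xbp1, a factor of the secretory programme, by -0.18, neither passing. Only these 2 plasma cell markers had all HDAC9-/- arrays below wild type, and Jchain weighed most in the mean. The arrays overlapped for Derl3 (-0.28), Sdc1 (-0.05, at a dim level) and Prdm1 (0.02). The part of these cells in the Irf4 values was not tested.

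**Figure D2:**
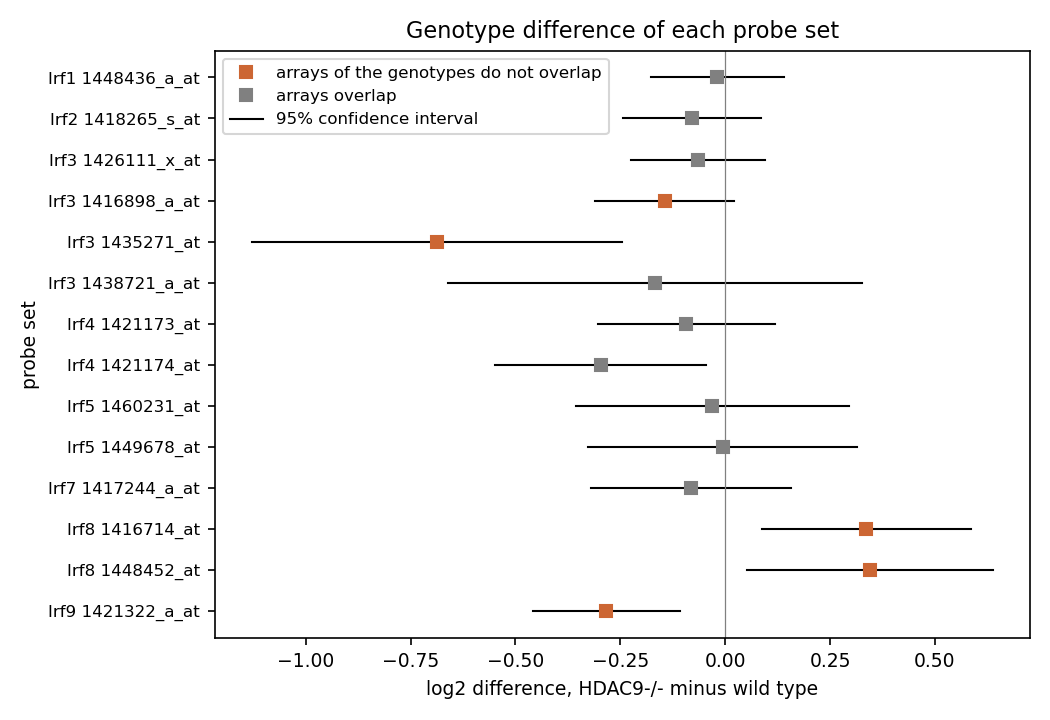
Squares give the log2 difference, HDAC9-/- minus wild type, of each of the 14 probe sets and lines its 95% confidence interval from limma, with orange for probe sets whose genotypes do not overlap. The intervals of Irf8 (2 probe sets), Irf9, Irf3 1435271_at and Irf4 1421174_at leave out 0 before adjustment over the table, and the 4 Irf3 probe sets spread from -0.07 to -0.69.

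Irf8 was the member with positive differences, and its probe sets gave nearly the same genotype difference, although they ordered the arrays within each genotype differently. Probe set 1416714_at read 8.59, 8.82 and 8.87 in wild type and 9.22, 9.09 and 8.97 in HDAC9-/- replicates 1 to 3. Probe set 1448452_at read 7.87, 8.20 and 7.74 against 8.22, 8.29 and 8.34. In both, every HDAC9-/- array lay above every wild type array, although the gap between the groups was narrow, at 8.20 against 8.22 in the second. The differences were 0.34 with a standard error of 0.10 and 0.34 with a standard error of 0.12, or 1.26-fold and 1.27-fold, and neither passed (limma, adjusted p = 0.495 and 0.542). When single arrays were left out they ran from 0.25 to 0.40 and from 0.25 to 0.48. The within-array gap between the probe sets had a mean of 0.82 ± 0.27 for wild type and 0.81 ± 0.19 for HDAC9-/- samples (SD, n = 3; two-sided exact permutation p = 1). With 3 arrays against 3, this test cannot show that the probe sets agree. Both probe sets cite the same accession.

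Monocytes, dendritic cells and B cells make much Irf8. The mean of the myeloid markers was higher on the same arrays. The largest differences in that list were those of the neutrophil genes Camp, Ngp, S100a9 and S100a8, which weigh most in the mean. Averaged over 13 myeloid markers, the log2 value was 7.87, 8.47 and 8.46 for wild type and 8.995, 9.07 and 8.60 for HDAC9-/- replicates 1 to 3, without overlap. All 13 differences were positive, with a median of 0.46, but none passed. Of these 13, only Cd14 and Itgam had means below the median of all values. Camp and Ngp, granule proteins of developing neutrophils, had the largest differences (1.41 and 1.38). S100a9 and S100a8, the calprotectin subunits, had 1.01 and 0.96, and Csf1r, the receptor of macrophage colony-stimulating factor, had 0.50. Taken singly, 6 of the 13 had all HDAC9-/- arrays above wild type, against 12.5% of all genes. They were Camp, Ngp, S100a9, S100a8, Cst3 and Cd68. The others overlapped, among them Csf1r, Lyz2, Mpeg1 and Tyrobp. In HDAC9-/- replicate 3, Csf1r read 7.01, below all wild type arrays (7.18, 7.62 and 7.40). Lyz2 read 9.24 on that array, against 9.18, 9.92 and 10.36 in wild type. The mean of 10 dendritic cell markers ran from 5.89 to 6.03 (wild type) and from 5.97 to 6.14 (HDAC9-/-), with 7 of 10 positive and 4 of 10 dim, among them Xcr1 and Zbtb46. Flt3, a receptor of dendritic cells and their progenitors, differed by 0.47 and Itgax, which encodes CD11c, by 0.28, neither passing. The 3 negative differences were those of Ccr9 (-0.34), Cd209a (-0.08) and Xcr1 (-0.06), all with overlapping arrays. The 7 measured B cell markers had means of 6.46 to 6.65 and 6.26 to 6.88, with 5 of 7 positive. Pax5, the B cell identity factor, differed by -0.23 and Cd79b, a chain of the B cell receptor complex, by 0.23, neither passing, and Pax5 and Ebf1 were dim. HDAC9-/- replicate 3 was the lowest of its genotype for the myeloid, dendritic and B cell lists and for Irf8 probe set 1416714_at, but the highest for 1448452_at. The part of these cells in the Irf8 values was not tested.

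**Figure D3:**
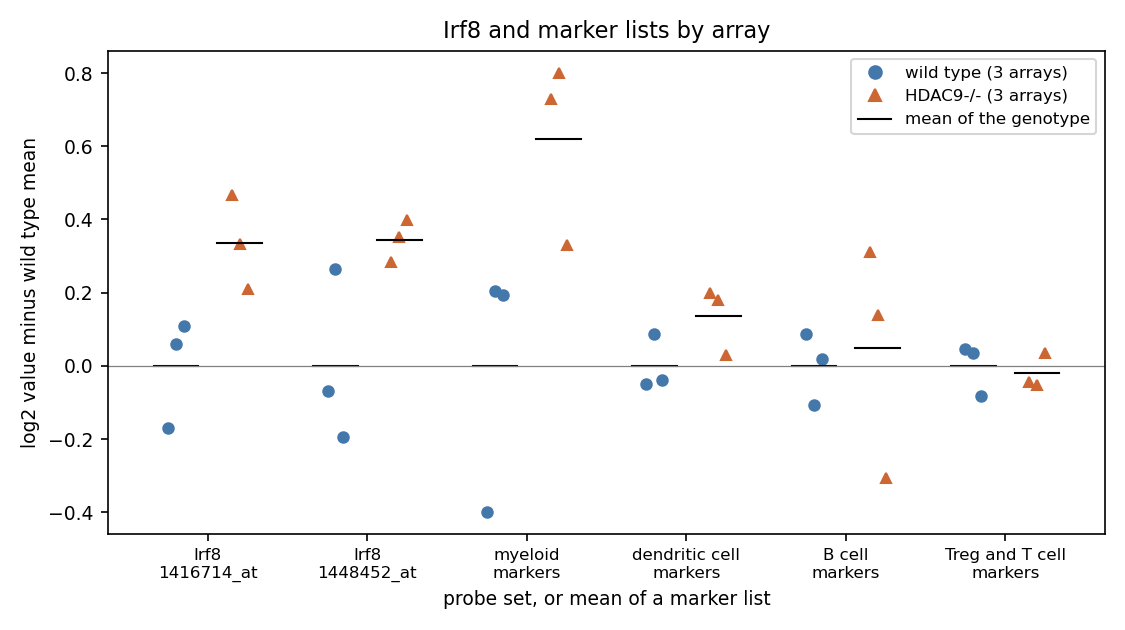
Points give the log2 value of each array minus the wild type mean, for the Irf8 probe sets and for the mean of each marker list, with circles for 3 wild type arrays, triangles for 3 HDAC9-/- arrays and lines at the means. The myeloid mean (7.87 to 8.47 against 8.60 to 9.07) and Irf8 each separate the genotypes, though only 6 of the 13 myeloid markers do so singly. The largest differences among these markers are those of the neutrophil genes Camp, Ngp, S100a9 and S100a8. The dendritic, B cell and T cell means overlap.

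The genes around the factors were described by lists, with the brightest probe set for each gene. No member of these lists passed, and of all 12393 genes 0.00807% did. Of all genes, 6.12% had an unadjusted p below 0.05 with a positive and 2.62% with a negative difference, 46.0% had a negative difference, 12.5% had all HDAC9-/- arrays above wild type and 5.70% all below, and the median difference was 0.01.

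Upstream of the factors, 17 of 26 listed sensors, adaptors and kinases were measured. Their differences had a median of -0.02, with 8 positive and 9 negative, and 1 positive and 2 negative at an unadjusted p below 0.05. Ikbke, a kinase of Irf3 and Irf7, read 10.37, 10.38 and 10.34 in wild type and 10.12, 10.06 and 10.11 in HDAC9-/- replicates 1 to 3. The groups were tight and did not overlap, and the difference of -0.27 (standard error 0.06) did not pass (limma, adjusted p = 0.422). Tmem173, which encodes the adaptor STING, differed by -0.22, again without overlap. Tlr4, the receptor of bacterial lipopolysaccharide, differed by 0.32 at a dim level (means of 4.18 and 4.50).

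For the interferon receptors and their JAK-STAT pathway, 12 of 13 genes were measured, 9 with negative differences and a median of -0.08. Usp18, an interferon-induced protease that dampens signalling at the type I receptor, read 8.80, 8.64 and 8.70 in wild type and 8.41, 8.34 and 8.42 in HDAC9-/- replicates 1 to 3. The genotypes did not overlap, and the difference of -0.32 (standard error 0.07) did not pass (limma, adjusted p = 0.398). Socs1, the feedback inhibitor of Janus kinases, differed by -0.34 without overlap. Ifngr2, a chain of the interferon gamma receptor, differed by -0.29 with overlap. Stat2, the partner of Irf9 in ISGF3, differed by -0.11, and Ifnar1, a chain of the type I receptor, by -0.13, both without passing.

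The interferon genes themselves were mostly dim, with means below the median of all values for 7 of the 9 measured. Ifng, the T helper 1 cytokine, read 7.87, 7.20 and 7.81 in wild type and 6.95, 7.27 and 6.99 in HDAC9-/- samples. Wild type replicate 2 lay among the HDAC9-/- arrays, and the difference of -0.56 did not pass (adjusted p = 0.530). Ifnb1 differed by -0.41 at means of 4.48 and 4.07. Natural killer cells and CD8 T cells also make Ifng. The mean of 9 of their markers ran from 8.28 to 8.51 for wild type and from 8.40 to 8.73 for HDAC9-/- samples. Of the 9, 7 were positive (Eomes 0.24, Ccl5 0.30, neither passing), and Prf1 (-0.10) and Nkg7 (-0.06) were negative. The part of these cells in the Ifng value was not tested.

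Targets of the factors were split. Of 42 listed interferon-stimulated genes 36 were measured, with 15 positive and 21 negative differences and a median of -0.02. The list mean was 8.36 to 8.45 in wild type and 8.38 in all HDAC9-/- samples. Mx1 read 6.53, 6.57 and 6.69 in wild type and 7.12, 6.99 and 7.09 in HDAC9-/- replicates 1 to 3, without overlap. The difference of 0.47 did not pass (limma, adjusted p = 0.307). Rsad2, which encodes viperin, differed by 0.27, also without overlap. Irgm1 and Igtp, GTPases best known as induced by interferon gamma, differed by -0.25 and -0.23 without overlap, and neither passed. Thus 2 genes had positive and 4 negative differences at an unadjusted p below 0.05.

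Of 24 partners and cofactors of the factors 19 were measured, 14 with negative differences, 0 at an unadjusted p below 0.05 and a median of -0.04. The genotypes did not overlap for Ets1, an ETS factor of T cells (-0.22), and Jund, an AP-1 subunit (-0.07), both below wild type. Spi1 and Spib, the ETS factors that bind DNA together with Irf4 or Irf8, differed by 0.40 and 0.32 with overlapping arrays. Both are made by myeloid, dendritic or B cells. Batf, the partner of Irf4 in T cells, read 9.17 and 9.13, and Batf3 differed by 0.33 with overlap.

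Genes that depend on Irf4 in effector Treg were measured for 18 of 20, of which 13 differed upward and 5 downward (median 0.09). Il1r2, the decoy receptor of interleukin-1, read 7.16, 7.25 and 7.32 in wild type and 7.71, 7.85 and 7.91 in HDAC9-/- replicates 1 to 3. The groups were well apart, but the difference of 0.58 (standard error 0.08) did not pass (limma, adjusted p = 0.299). Ccr4, a chemokine receptor of Treg, differed by 0.24 without overlap, at a dim level (means of 5.01 and 5.24). Cxcr3, the receptor of T helper 1 type cells, differed by -0.31, also without overlap. Neutrophils also make Il1r2. The mean of the myeloid markers separated the same arrays, and the part of neutrophils in the Il1r2 value was not tested. The list mean overlapped between the genotypes, at 8.11 to 8.18 for wild type and 8.15 to 8.35 for HDAC9-/- samples.

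**Figure D4:**
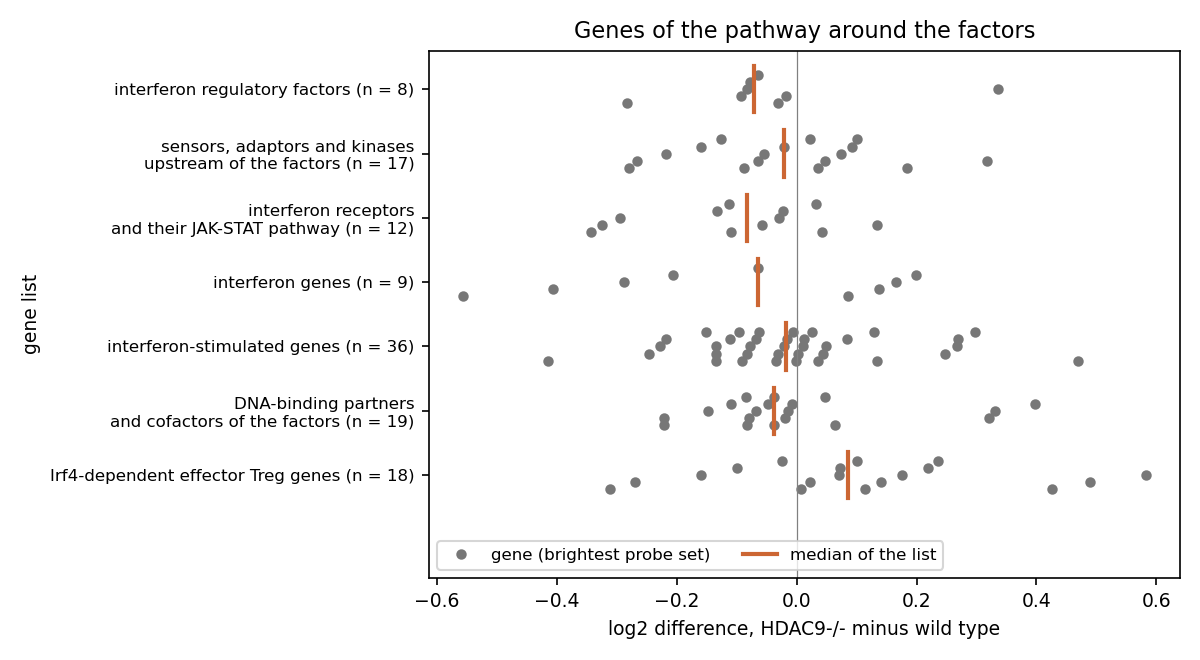
Each grey point is the log2 difference, HDAC9-/- minus wild type, of 1 gene by its brightest probe set, and the orange line is the median of its list, with the number of measured genes beside the list's name. The medians lie between -0.08 and 0.09, and Irf8 is the single factor to the right of 0.

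The profile of Irf9, the member probe set with the smallest unadjusted p, was set against 10366 probe sets with 1 symbol and a mean at or above the median. Likeness was the root mean square distance between profiles over the 6 arrays, each centred on its own mean. The nearest was Macf1, a linker of actin and microtubules (probe set 1428847_a_at, distance 0.034 log2 units), which read 9.81, 9.75 and 9.77 in wild type and 9.44, 9.55 and 9.62 in HDAC9-/- samples. Fam174b (0.037), Jmjd6 (0.040), Mdfic (0.041) and Tent5c (0.043) followed. Their differences, from -0.20 to -0.30, did not pass, and they lie near that of Irf9 because of the way the genes were chosen.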

How the data were processed

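Total RNA was biotin-labelled and hybridised to 1 array per sample. The authors deposited 1 log2 value per probe set, and the submitters' processing notes name RMA. In its usual form RMA corrects background, normalizes arrays to a common distribution and summarises probes, and it compresses differences of dim probe sets. The sources used here give no settings for it. Groups and replicate numbers came from the sample titles. After 64 control probe sets were removed, 22626 were tested with limma 3.58.1 in R 4.3.3 (lmFit, eBayes, genotype alone), without a brightness filter, with Benjamini-Hochberg adjustment at 0.05. Differences are HDAC9-/- minus wild type. Symbols came from the platform annotation (20380 probe sets with 1 symbol, 691 with several and 1555 with none), and list genes were matched through Entrez identifiers. The fit was tested on simulated data. The members and lists were chosen with earlier results of these data known. Every member probe set was named, with 2 to 4 genes of the smallest unadjusted p from each list described, and Foxp3, Cd3e and Ikzf2 for the check of the cell type. Csf1r, Stat2, Spib, Batf, Jund, Cd14, Itgam, Xcr1, Zbtb46 and Ebf1 were added after their values were seen. So were Cst3, Cd68, Lyz2, Mpeg1, Tyrobp, Cd209a, Prf1, Nkg7 and Prdm1. Alternatives were renormalization, alignment of medians, a brightness filter, other variance priors, array weights, a replicate block, leaving out each array, and averaging the probe sets of a gene. Plots used matplotlib 3.10.9 (Python 3.11.15).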

Additional observations from a re-analysis of the deposited data

How the results depend on the processing

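No member probe set reached an adjusted p below 0.05 under any alternative run, or below 0.10 with all arrays and the settings as reported. The lowest value was 0.0914, for Irf3 1435271_at without wild type replicate 3. Of 126 member differences that renormalization, array weights or leaving out 1 array could alter, 6 changed sign, all by leaving out 1 array. Leaving out single arrays gave -0.059 to 0.0046 for Irf1, -0.34 to 0.052 for Irf3 1438721_a_at, -0.094 to 0.12 for Irf5 1449678_at and -0.16 to 0.12 for Irf5 1460231_at. The count of members at an unadjusted p below 0.05 was 3 to 5 without single arrays, 6 with array medians aligned or array weights, and 4 with the brightness filter. The difference between probe sets of 1 gene without single arrays was -0.82 to -0.51 for Irf3, -0.27 to -0.12 for Irf4, -0.22 to 0.10 for Irf5 and -0.11 to 0.14 for Irf8, and for Irf8 it was 0.0072 with quantile normalization again. Over all probe sets, the 3 that passed became 5 at an adjusted p below 0.10, 15 with the trended and robust prior, 6 with array weights, 0 with the replicate number as a block, and 0 to 6 without single arrays; the cause was not tested. The replicate numbers did not pair the arrays (correlations of deviations of 0.036, 0.099 and -0.25 for numbers 1 to 3), and the block left 0 members past the threshold and 5 at an unadjusted p below 0.05. The Irf3 probe sets 1435271_at and 1438721_a_at and Irf4 1421174_at have no value under the brightness filter. Array number limits what can be seen.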
